A study of Mus musculus with 2 samples.

Results

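The Adh, Aldh and Akr genes encode the alcohol dehydrogenases, the aldehyde dehydrogenases and the aldo-keto reductases. They were taken by symbol from the deposited expression table: every name that starts with Adh, Aldh or Akr followed by a number, without pseudogenes marked -ps, whatever its level. This gave 42 of 24054 genes, of which 5 were Adh, 20 Aldh and 17 Akr genes. The data come from mouse liver, with 1 RNA-seq library for Pgrmc1 KO mice (Pgrmc1 -/Y) and 1 for WT mice. All were male mice of 8 to 12 weeks, with the strain labelled C57BL/6. The targeted allele was made in C57BL/6N stem cells and bred to C57BL/6N, and then to the Cre line B6.Cg-Tg(Sox2-cre)1Amc/J. In the KO mice, Cre driven by Sox2 had removed exons 1 and 2 of the X-linked Pgrmc1 gene from the whole body, so a change in liver can also come from loss of Pgrmc1 in another tissue. Each library was made from a pool of RNA from 5 mice, 2.5 μg per mouse, so variation from mouse to mouse cannot be seen and no test between genotypes was possible.

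Alcohol dehydrogenases oxidize alcohols to aldehydes with NAD, aldehyde dehydrogenases oxidize aldehydes to acids, and aldo-keto reductases mostly work in the other direction, reducing aldehydes and ketones with NADPH. In liver these enzymes clear ethanol and acetaldehyde, make retinoic acid from vitamin A, and carry steps of amino acid, folate, bile acid and steroid metabolism. Most are soluble enzymes of the cytosol or the mitochondrial matrix and, unlike the cytochromes P450 that Pgrmc1 binds, they hold no heme.

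Levels are given as TPM, a gene's share of the transcript pool corrected for length, as the authors deposited them. A change is the log2 of (KO TPM + 1)/(WT TPM + 1). Adding 1 TPM shrinks the differences of low genes. The fold was passed when this ratio was at least 1.4 or at most 0.6 with a TPM above 0 in both libraries, a fold taken from the study's methods. The estimated reads behind the second deposited table were 22086688 in KO and 29710410 in WT, from the value that 1 read takes in it. From these reads a 95% Clopper-Pearson interval was set on the log2 ratio of the authors' means, which covers counting error only. Each interval printed below belongs to that ratio and not to the TPM change beside it, and these measures are scaled differently. Pgrmc1 itself was at 0.68 TPM in the KO library and 949.49 TPM in the WT library, as the labels have it.

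These 3 families stood at nearly the same level in both libraries. Their transcripts summed to 8415.76 TPM in KO against 8347.18 TPM in WT, 0.837% and 0.839% of all TPM. In tissue RNA, fewer cells of a type and less RNA per cell cannot be told apart. Averaged over both libraries, 32 of the 42 members reached 1 TPM and 26 reached 10 TPM. Upward, 1 member passed the fold (Akr1b3), or 2.38% of the members, against 0.665% of the 22847 genes listed above 0 TPM in both libraries. Downward, 0 of 42 passed, against 0.166% of those genes. Of all genes, 11623 averaged 1 TPM or more. Adding 1 TPM shrinks the differences of the rest, so the backgrounds here are not matched to the members for level. With a smaller fold of 1.2 and its inverse, Aldh1a1 joined Akr1b3 upward (background 3.55%) and Aldh1b1 passed downward (background 3.37%). The median change of the 32 members that averaged 1 TPM or more was 0.016, beside -0.013 for all 11623 such genes, and 21 of the 32 were above 0, beside 45.8% of all. Among the 26 members that averaged 10 TPM or more, 24 differed by less than 1.2-fold, and so did 92.8% of the 6235 genes at that level.

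**Figure D1:**
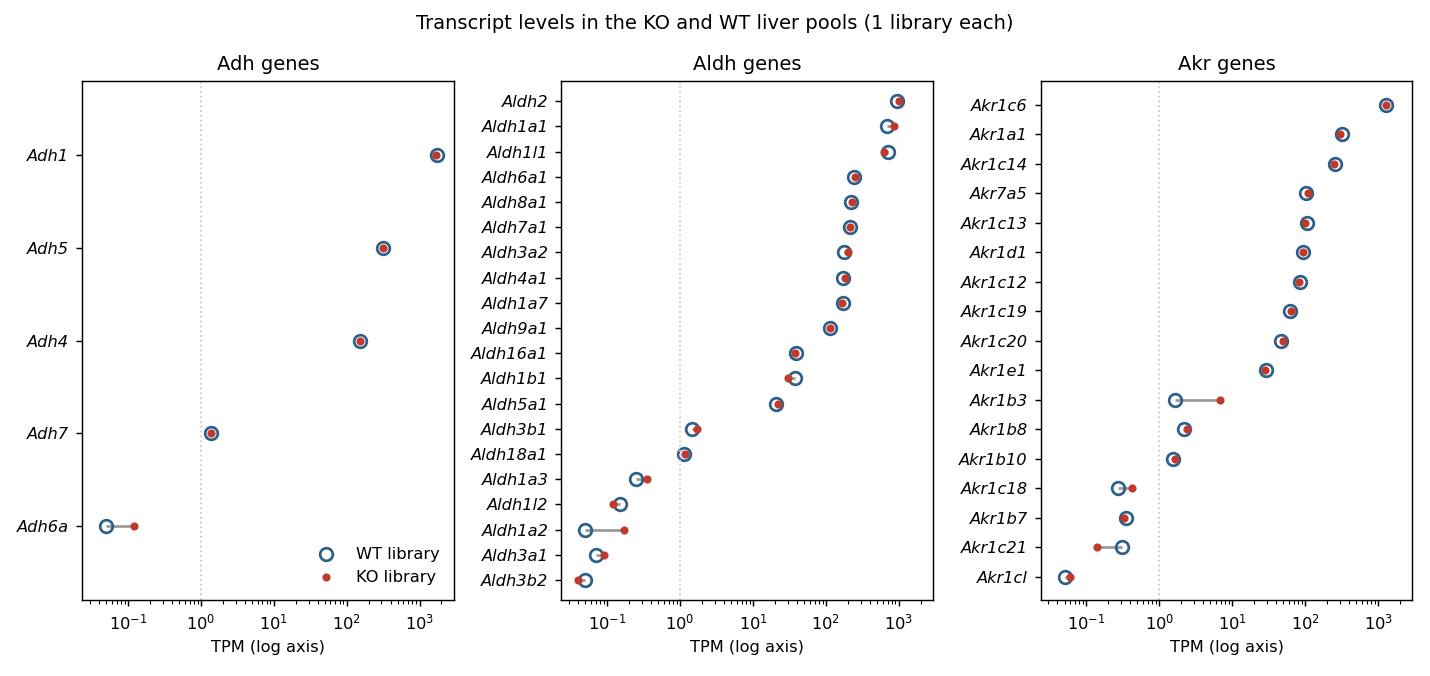
TPM of the 42 members in the WT library (open blue circles) and the KO library (red dots), by family, on a log axis; the grey line joins the libraries and the dotted line marks 1 TPM. The symbols lie on top of each other for most members above 1 TPM, and Akr1b3 stands apart at 1.62 TPM in WT against 6.87 TPM in KO.

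Adh1, the main ethanol and retinol dehydrogenase of liver, was the most abundant member, at 1659.1 TPM in KO against 1735.76 TPM in WT. Its change was -0.065. The log2 ratio of its authors' means was -0.047, with an interval of -0.070 to -0.025 that lies just below 0. Adh5 removes formaldehyde bound to glutathione and also reduces S-nitrosoglutathione. It stood at 312.47 TPM in KO against 320.1 TPM in WT, and its interval held 0 (-0.066 to 0.028). Adh4, a dehydrogenase of larger alcohols, was at 154.78 and 151.69 TPM, again with 0 inside the interval (-0.029 to 0.12). Adh7, best known from stomach lining, was near the lower limit at 1.38 TPM in KO against 1.36 TPM in WT. Adh6a had 0.12 and 0.05 TPM, from 1 estimated read in KO and 0 in WT, so no fold is given.

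All 5 Adh genes lie side by side on chromosome 3 (138198064 to 138455499 of GRCm38, the mm10 assembly), in the order Adh7, Adh1, Adh6a, Adh4 and Adh5. Their mean levels ran from 0.085 TPM for Adh6a to 1697 TPM for Adh1 within 257 kb, while the 4 above the lower limit changed by -0.065 to 0.029. The Adh sum was 2127.85 TPM in KO against 2208.96 TPM in WT, a ratio of 0.963, and 78.6% of the WT sum was Adh1. Without Adh1 the ratio was 0.991.

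The Aldh family held the larger differences among abundant members. Aldh1a1, the cytosolic retinaldehyde dehydrogenase that makes retinoic acid, was at 851.85 TPM in KO against 689.11 TPM in WT. This is a change of 0.31 (1.24-fold), with an interval of 0.29 to 0.35 on 22358 and 24183 estimated reads. Aldh1b1, a mitochondrial enzyme that accepts acetaldehyde and retinaldehyde, was at 29.85 TPM in KO against 37.28 TPM in WT. Its change was -0.31 (0.806-fold), and the interval on the authors' means was -0.43 to -0.19 on 896 and 1498 reads. Aldh1a1 was the single member of at least 10 TPM above the 95th percentile of all such genes (0.20), and Aldh1b1 the single one below the 5th (-0.25).

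Aldh1a7, which lies beside Aldh1a1 on chromosome 19 and is its close paralog, was lower in KO, at 164.36 TPM against 174.12 TPM in WT, a change of -0.083 (interval -0.12 to -0.013). The neighbours therefore differed in opposite directions. They share only 1 window of 100 bases between their GENCODE transcripts, the length of the reads, but their estimated reads were not all whole numbers. How RSEM divided reads between them was not tested. The other retinaldehyde dehydrogenases, Aldh1a2 and Aldh1a3, were at 0.17 and 0.35 TPM in KO and at 0.05 and 0.25 TPM in WT, on at most 15 estimated reads per library. Their intervals held 0.

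Aldh1l1 converts formyltetrahydrofolate to tetrahydrofolate and carbon dioxide in the cytosol. Its level was 629.64 TPM in KO against 717.17 TPM in WT, a change of -0.19 with an interval of -0.20 to -0.15. Aldh1l2, its mitochondrial counterpart, had 0.12 TPM in KO against 0.15 TPM in WT, on 9 and 15 estimated reads. The liver pools thus held almost only the cytosolic form, and that form was lower in KO.

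Hepatocyte markers were high in both libraries, with 6 genes summing to 72621 TPM in KO against 75542 TPM in WT. Markers of pericentral hepatocytes, those around the central vein, were above 0 for 17 of 18 genes (median 0.13, sum 8613 TPM in KO against 7982 TPM in WT), and 4 passed the fold upward (Cyp7a1, Rhbg, Tbx3 and Rnf43). Of all genes that averaged 1 TPM or more, 45.8% were above 0, and 0.665% of genes listed above 0 in both libraries passed upward. The second share was not matched to the markers for level. Markers of periportal hepatocytes were below 0 for 14 of 18 genes (median -0.15, sum 8838 and 10068 TPM), and 0 passed it. Kupffer cell markers were above 0 for 7 of 7 genes (sum 279.29 and 244.83 TPM). Of the genes that averaged 1 TPM or more, stellate cell markers were below 0 for 7 of 8 (263.34 and 292.05 TPM), endothelial markers for 7 of 8 (196.95 and 215.91 TPM) and bile duct markers for 4 of 5 (95.32 and 106.83 TPM). Red cell markers were below 0 for 3 of 5 (1412.68 and 1429.18 TPM), and lymphocyte markers summed to 7.22 and 7.45 TPM. In these last lists Hbb-bs and Nkg7 passed the fold downward. None of the measured markers was listed at 0, but the deposited TPM can be above 0 without estimated reads, as for Adh6a in WT. The part of the markers in the differences of Aldh1a1, Aldh1b1 and Aldh1l1 was not tested.

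Aldh2, the mitochondrial enzyme that clears acetaldehyde, was the most abundant Aldh gene, at 991.16 TPM in KO against 943.22 TPM in WT. Its change was 0.071. The log2 ratio of its authors' means was 0.086, with an interval of 0.063 to 0.11. Aldh3a2, the fatty aldehyde dehydrogenase of the endoplasmic reticulum, was at 203.27 TPM in KO against 178.94 TPM in WT, a change of 0.18 (interval 0.15 to 0.24). Its relatives were low: Aldh3b1 had 1.71 and 1.44 TPM, Aldh3b2 0.04 and 0.05 TPM, and Aldh3a1, an enzyme of cornea and stomach, 0.09 and 0.07 TPM in KO and WT.

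The Aldh genes of amino acid breakdown differed little. Aldh6a1 (valine) was at 249.56 TPM in KO against 245.42 TPM in WT, Aldh7a1 (lysine) at 216.8 and 215.1 TPM, and Aldh8a1 (the kynurenine pathway of tryptophan) at 226.13 and 219.14 TPM. Aldh4a1, which turns the proline product pyrroline-5-carboxylate into glutamate, was at 181.17 and 173.31 TPM. Aldh5a1, the succinic semialdehyde dehydrogenase of GABA breakdown, was at 22.16 and 20.64 TPM, and Aldh9a1, of carnitine synthesis, at 114.72 and 114.66 TPM. These 6 changes ran from 0.00075 for Aldh9a1 to 0.098 for Aldh5a1, all slightly above 0, and the intervals of Aldh7a1 and Aldh9a1 held 0. Aldh18a1, which makes pyrroline-5-carboxylate from glutamate and so works in the reverse direction of Aldh4a1, was near the lower limit at 1.15 and 1.13 TPM. Aldh16a1 was at 37.64 TPM in KO against 39.23 TPM in WT, and its interval held 0 (-0.15 to 0.058).

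Of the 15 Aldh genes that averaged 1 TPM or more, 11 were above 0, with a median of 0.024. The sum was 3921.94 TPM in KO against 3770.48 TPM in WT, a difference of 151.46 TPM and a ratio of 1.04. Aldh1a1 alone was 162.74 TPM higher in KO, more than the difference of the sum, and the difference of Aldh1l1 was -87.53 TPM.

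**Figure D2:**
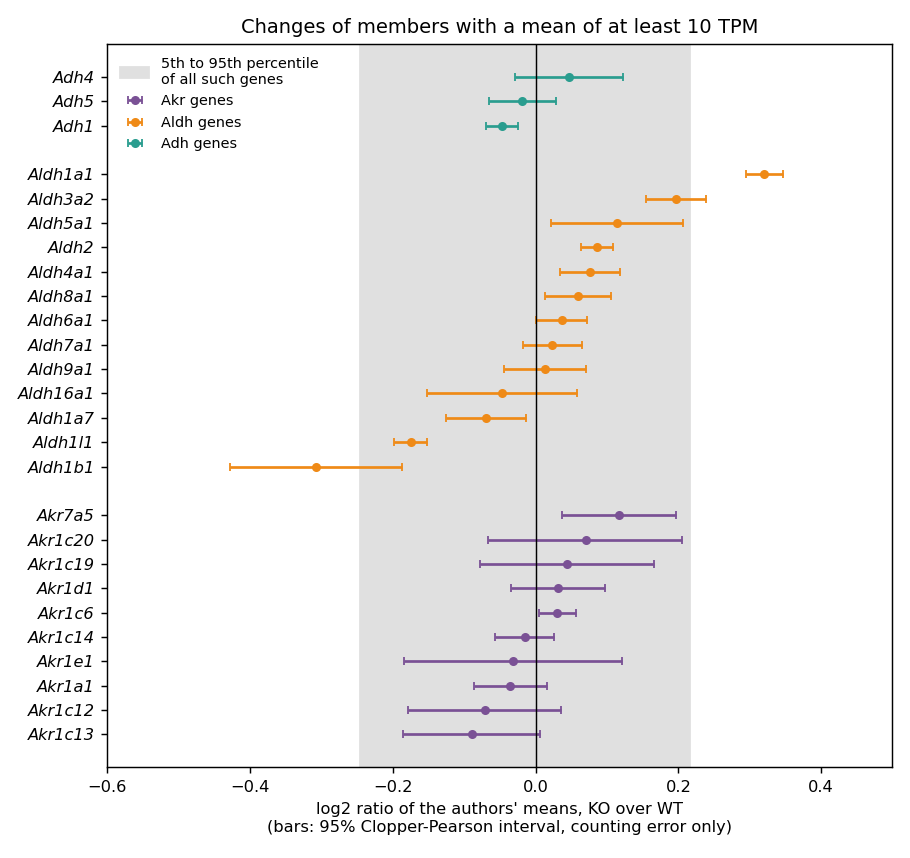
Log2 ratio of the authors' means, KO over WT, for the 26 members that averaged 10 TPM or more, with 95% Clopper-Pearson intervals for counting error; colors mark the families and the grey band is the 5th to 95th percentile of all genes at that level (-0.25 to 0.22). Aldh1a1 lies to the right of the band and Aldh1b1 to the left, and the 10 Akr genes lie inside it.

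No Akr gene at 10 TPM or more differed by as much as 1.2-fold. Akr1c6, a hydroxysteroid dehydrogenase, led them at 1275.17 TPM in KO against 1263.86 TPM in WT, with a change of 0.013. Akr1c14, another hydroxysteroid dehydrogenase, was at 249.78 and 254.8 TPM. Akr1c13 was at 99.3 and 107.04 TPM, Akr1c12 at 81.01 and 86.19 TPM, Akr1c19 at 64.04 and 62.88 TPM, and Akr1c20 at 49.07 and 47.32 TPM in KO and WT. These 6 changed by -0.11 to 0.051, and 3 of them were above 0. For Akr1c6 the log2 ratio of the authors' means was 0.030, and its interval lay just above 0 (0.0048 to 0.056). The intervals of the other 5 held 0. The remaining Akr1c genes were low, with Akr1c18, a progesterone-metabolizing enzyme best known from ovary, at 0.42 and 0.27 TPM, Akr1c21 at 0.14 and 0.31 TPM, and Akr1cl at 0.06 and 0.05 TPM.

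Except for Akr1cl, which is on chromosome 1, the Akr1c genes form a cluster on chromosome 13 (4048991 to 4609164) that ends with Akr1e1. Mean levels within it ran from 0.225 TPM for Akr1c21 to 1270 TPM for Akr1c6. Akr1e1, a reductase of anhydrofructose, was at 27.96 TPM in KO against 28.88 TPM in WT, with an interval of -0.18 to 0.12. The summed TPM of the 9 genes named Akr1c was 1818.99 in KO and 1822.72 in WT, a ratio of 0.998.

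Akr1a1 reduces glucuronate to gulonate, a step of vitamin C synthesis in mice. It was at 304.33 TPM in KO against 315.64 TPM in WT (interval -0.087 to 0.016). Akr1d1, the steroid reductase that sets the bent ring of bile acids, was at 93.48 and 92.27 TPM (interval -0.034 to 0.097). Akr7a5, an aflatoxin aldehyde reductase, was at 109.99 TPM in KO against 102.51 TPM in WT, with an interval above 0 (0.038 to 0.20). The Akr sum was 2365.97 TPM in KO against 2367.74 TPM in WT, a ratio of 0.999.

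Over all 26 members that averaged 10 TPM or more, the counting interval lay above 0 for 9, below 0 for 4 and held 0 for 13. Of 6174 genes at that level in both tables it lay above 0 for 14.5% and below 0 for 18.8%. Such an interval narrows with the number of reads, which were up to 28461 in KO and 39455 in WT for a member, and it does not include the differences between mice. It is set on the authors' means, so an interval that ends near 0 depends on their scaling. Akr1c6 (0.0048 to 0.056) and Aldh6a1 (0.00083 to 0.072) are such cases, with TPM changes of 0.013 and 0.024.

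Akr1b3, the aldose reductase that turns glucose into sorbitol, was the member that passed the fold. It was at 6.87 TPM in KO against 1.62 TPM in WT, a change of 1.59, from 97.96 and 24.32 estimated reads. The log2 ratio of the authors' means, with 1 added to each, was 2.39. The counting interval, on the ratio with nothing added, was 1.81 to 3.17. Reads that are not whole numbers arise where RSEM divides reads between genes. The gene lies on chromosome 6 (34303930 to 34317489), next to Akr1b8, Akr1b10 and Akr1b7. Its neighbours, which are other aldose reductase-like enzymes, did not share the difference. Akr1b8 was at 2.38 TPM in KO against 2.21 TPM in WT, Akr1b10 at 1.64 and 1.54 TPM, and Akr1b7 at 0.33 and 0.35 TPM, with whole reads (at most 46 per library) and intervals that held 0.

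Akr1b3 has a near-identical processed copy, Gm6644 on chromosome 1 (55443695 to 55445063), for which RefSeq gives the synonym Akr1b3p. Over the 951 aligned bases, which hold the coding sequence, GENCODE transcripts of the pair (GRCm38) differ at 3 positions, and the longest identical run is 535 bases. These 3 differences are A536G, T630C and G841C, where the first letter is the base of Akr1b3, the number its position from the start of the coding sequence and the last letter the base of Gm6644. They are shown because within the aligned bases the pair differs at these positions alone. Reads were paired, so a mate in the rest of the 1387-base Akr1b3 transcript could also assign a read. The RefSeq span of Gm6644 is longer than its 951-base GENCODE transcript, and the part beyond it was not aligned. Each pair of lines below gives 1 such position in capitals with 20 bases on either side, 5′ to 3′ in the direction of the transcripts, which are both on the minus strand.

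Akr1b3 at position 536: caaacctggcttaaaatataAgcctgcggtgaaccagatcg
Gm6644 at the same position: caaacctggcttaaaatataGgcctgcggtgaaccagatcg
Akr1b3 at position 630: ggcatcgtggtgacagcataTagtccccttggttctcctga
Gm6644 at the same position: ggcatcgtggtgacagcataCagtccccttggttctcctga
Akr1b3 at position 841: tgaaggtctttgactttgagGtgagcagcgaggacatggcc
Gm6644 at the same position: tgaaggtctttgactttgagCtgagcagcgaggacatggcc

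The middle stretch of Akr1b3 lies in exon 6 at chr6:34309970-34310010. The first crosses from exon 5 to exon 6 and the last from exon 8 to exon 9, with an intron between. The stretches of Gm6644 are at chr1:55444469-55444509, chr1:55444375-55444415 and chr1:55444164-55444204, each unbroken.

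The copy went in the opposite direction. Gm6644 was at 4.49 TPM in KO against 10.82 TPM in WT, a change of -1.11, from 94.04 and 251.68 estimated reads. Together, Akr1b3 and Gm6644 had 192 estimated reads in KO and 276 in WT, whole numbers to within 0.02. Their summed TPM was 11.36 in KO and 12.44 in WT, a change of -0.12. The log2 ratio of their summed authors' means was -0.090, with a counting interval of -0.36 to 0.18 that holds 0. Akr1b3 took 60.5% of the summed TPM in KO and 13% in WT. The sum was thus close in both libraries, while its division between the copies differed. With the sum in place of Akr1b3, 0 members passed the fold in either direction. Whether the libraries differ in sequence at the 3 positions was not tested. GENCODE lists 2 other processed pseudogenes that share windows with Akr1b3, Gm12138 and Gm6736, for which no value was used here.

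**Figure D3:**
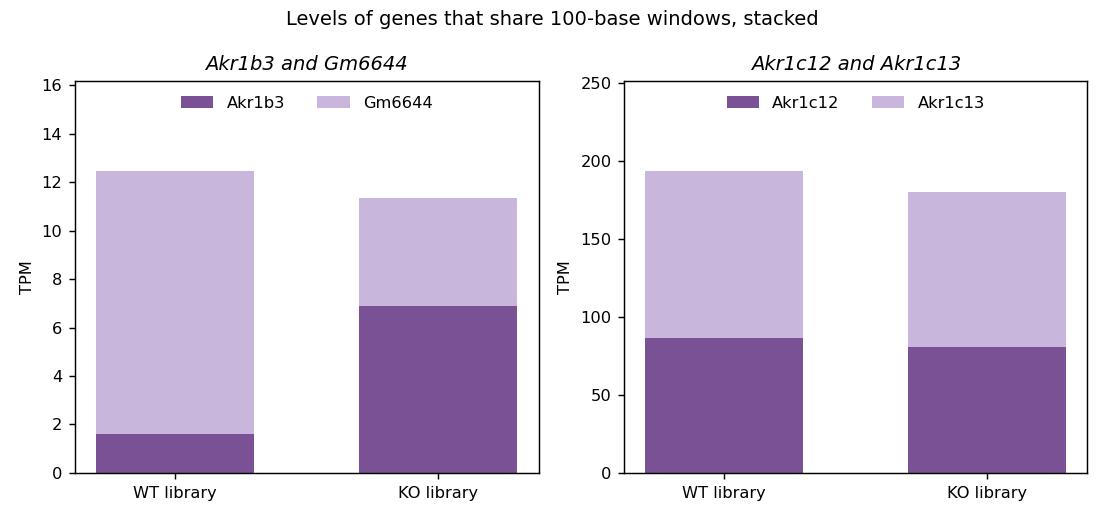
Stacked TPM of Akr1b3 with its copy Gm6644 (left) and of Akr1c12 with Akr1c13 (right) in the WT and KO libraries, on axes that start at 0. The left bars reach 12.44 TPM in WT against 11.36 TPM in KO with very different divisions, while Akr1c12 takes 44.6% of the right bar in WT and 44.9% in KO.

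Akr1c12 and Akr1c13 are a second such pair, both members, and they served as a comparison. Their transcripts agree at 94.6% of 1260 aligned bases and share 134 windows of 100 bases. Their estimated reads were not whole (1209.51 and 1484.49 in KO), but their sums were, at 2694 in KO and 3850 in WT. Here the division was nearly the same in both libraries. The sum was 180.31 TPM in KO against 193.23 TPM in WT, a change of -0.099. On the authors' means the log2 ratio of the sums was -0.081, with an interval of -0.15 to -0.010. Each gene alone had an interval that held 0, while that of the sum lay below 0. The coding stretch of 75 bases in exon 4 in which they differ most is shown to set against the single differences of the first pair, with the 9 differing bases in capitals, 5′ to 3′ along each transcript. It lies at chr13:4274350-4274424 on the minus strand for Akr1c12 and at chr13:4196433-4196507 on the plus strand for Akr1c13 (GRCm38).

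Akr1c12: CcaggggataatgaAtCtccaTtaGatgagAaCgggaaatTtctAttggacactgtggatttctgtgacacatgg
Akr1c13: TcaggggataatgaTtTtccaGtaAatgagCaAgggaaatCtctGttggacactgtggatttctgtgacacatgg

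Of the 42 members, 30 have no 100-base window in common with another GENCODE gene. Of the 12 that do, 3 share over 10% of their windows. These are Aldh4a1 (27.5%, with Gm21969), Aldh3b2 (14.0%, with Aldh3b3) and Akr1c12 (11.5%). No value for Gm21969 or Aldh3b3 was used here. Akr1b3 shares 7.36% of windows counted over all its transcripts, which include long forms with retained introns. Adh1, Aldh2 and Aldh1b1 share none, and Aldh1a1 1 window.

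Other genes of the pathways in which these families work were read from 12 lists of 180 genes, 174 of them measured. Upward, 3 of the 174 passed the fold (1.72%, background 0.665%), and downward 0 did (background 0.166%). The background was not matched to these genes for level. The 156 that averaged 1 TPM or more had a median of 0.022, with 88 above 0. The 3 were Cyp26a1, at 20.13 TPM in KO against 7.38 TPM in WT, Cyp26b1, at 10.47 and 6.62 TPM, and Cyp7a1, at 66.28 and 32.04 TPM. The first 2 break down retinoic acid, the product of Aldh1a1, and Cyp7a1 is the rate-limiting enzyme of bile acid synthesis. Cyp7a1 is also 1 of the 4 pericentral markers past the fold, and the part of the pericentral and periportal marker differences in these 3 calls was not tested.

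In the retinoid list, 15 of 22 genes were above 0 (median 0.054), from -0.29 for Rdh9, a retinol dehydrogenase, to 1.33 for Cyp26a1. Rdh7, another retinol dehydrogenase and highly expressed, was at 921.31 TPM in KO against 940.28 TPM in WT. The list of ethanol and formaldehyde removal held Cat, Cyp2e1, Adhfe1, Acss1, Acss2, Acss3, Esd, Mettl7b and Fdx1, not all of which act on either compound. In this list, 0 of 9 passed the fold and 3 of 8 were above 0, while its sum was 7780 TPM in KO and 7484 in WT. Cyp2e1, the microsomal ethanol oxidizer and also a pericentral marker, was its most abundant gene, at 4760 TPM in KO against 4411 TPM in WT (0.11). Catalase (Cat) was at 1938.43 TPM in KO against 1979.94 TPM in WT, and Esd, which completes the formaldehyde route begun by Adh5, at 128.12 and 136.97 TPM. Around Aldh1l1, 11 of 17 folate enzymes were above 0 (median 0.044), so the lower level of Aldh1l1 was not matched by the majority of its neighbours in the pathway. The lowest of them was Mthfd1l, at 0.82 TPM in KO against 1.19 TPM in WT.

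Among enzymes of lysine and tryptophan breakdown, 7 of 13 were above 0, and the range was wide. Tdo2, which opens the tryptophan route, was at 1453.23 TPM in KO against 1819.52 TPM in WT (-0.32). Acmsd, which makes the semialdehyde that Aldh8a1 uses, was at 13.20 and 18.76 TPM (-0.48), while Aadat, an aminotransferase of both routes, was at 114.41 and 92.05 TPM (0.31). Aldh7a1 and Aldh8a1 themselves changed by 0.011 and 0.045. Valine and other branched-chain enzymes had a median of 0.045 (13 of 20 above 0), led by Bcat2 at 8.52 TPM in KO against 6.67 TPM in WT. Proline and glutamate enzymes had a median of 0.011 (6 of 12 above 0), with Gls2, also a periportal marker, lowest at -0.17.

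Beside Akr1d1, 9 of 13 bile acid enzymes were above 0 (median 0.046), with Cyp39a1 lowest at -0.34 and Cyp7a1 highest at 1.03. Hsd3b7, whose product Akr1d1 reduces, was at 436.41 TPM in KO against 394.00 TPM in WT (0.15). Steroid reductases and dehydrogenases had a median of -0.0072 (7 of 14 above 0). They ran from Hsd17b13, also a periportal marker, at -0.27 to Srd5a2 at 0.40, the latter on levels of 2.18 and 1.41 TPM. Enzymes of the polyol, glucuronate and ascorbate routes had a median of -0.035 (3 of 8 above 0). Sord, which takes the sorbitol made by Akr1b3, was at 807.97 TPM in KO against 816.14 TPM in WT. Gulo, the last enzyme of vitamin C synthesis and also a pericentral marker, was at 317.20 and 305.44 TPM.

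Of the other 3 lists, other carbonyl reductases and aldehyde oxidases had a median of -0.054 (5 of 14 above 0). Fatty aldehyde and ether lipid enzymes had a median of -0.017 (5 of 10). GABA and carnitine genes, which include the transporters Slc6a12, Slc6a13 and Slc22a5, had a median of 0.0098 (4 of 5). The extremes of these lists were Xdh (-0.12) and Cbr4 (0.17), Acer2 (-0.14) and Tmem86b (0.20), and Slc22a5 (-0.015) and Abat (0.10).

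**Figure D4:**
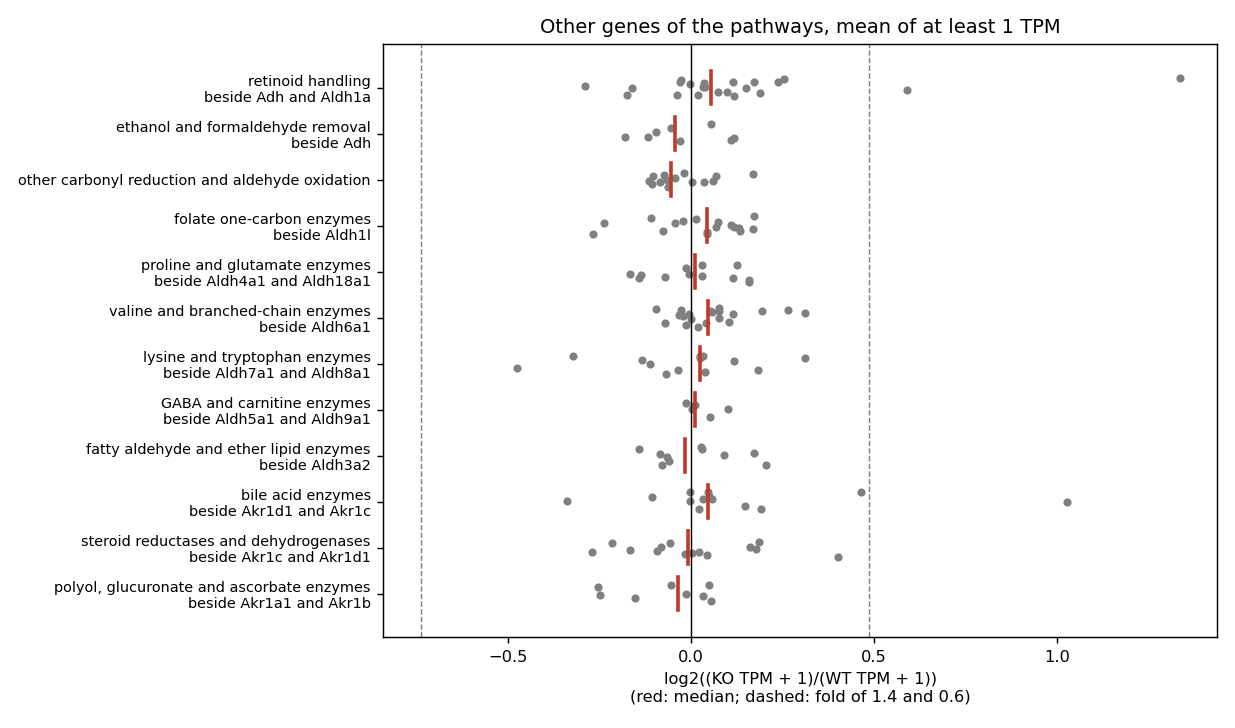
Log2 of (KO TPM + 1)/(WT TPM + 1) for each gene that averaged 1 TPM or more in the 12 lists of other pathway genes. Grey dots are genes, spread vertically for visibility, with the list median in red and the fold limits dashed. The medians lie between -0.054 and 0.054, and the 3 dots right of the upper limit are Cyp26a1, Cyp26b1 and Cyp7a1.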

How the data were processed

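For each genotype, pooled liver RNA gave 1 library (stranded total RNA, paired reads of 100 bases). Per the labels, CASAVA 1.8.2, RSEM 1.2.09 and Bowtie were used with mm10. The authors deposited posterior mean TPM for 24054 genes, with totals of 1005325 (KO) and 994702 (WT), so the libraries had been scaled to each other. The authors also deposited an EBSeq table of 16318 genes with a signal per library, the estimated reads divided by a size factor ("the authors' means"). Its fraction columns (probabilities of equal and of different expression) and its ratio columns (folds), deposited by the authors, are their own comparison and were not used. The mean columns are named for a first and a second condition and were read as KO and WT from the comparison the table is named for.

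The most frequent value above 0 of each signal column was taken as 1 read (1.16 in KO, 0.860 in WT). Within 0.02, 78.4% and 75.0% of values were then whole reads, so no count test was run. Of the 42 members, 40 are in this table, which lacks Aldh3a1 and Akr1cl. Of these 40, 19 had whole reads in both libraries, and Adh1, Aldh2, Aldh1a1, Aldh1l1 and Akr1c6 did not. Reads were rounded to whole numbers for the intervals, which leave out error in dividing reads between genes. All 42 matched a RefSeq gene of GRCm38, the source of gene coordinates. Windows of 100 bases and the printed sequences came from GENCODE M21 transcripts on the same strand. Whether the authors' gene set holds the same transcripts is not given in the sources used here. Local alignment used Biopython 1.88; other steps used Python 3.11.15 with pandas 2.3.3, numpy 2.4.6, matplotlib 3.10.9 and scipy 1.17.1. Calls and intervals were run on simulated whole reads, drawn independently. These held no divided reads and no differences between mice, so they check the calculation only.

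Every member was described. List genes named were the extremes, those past the fold and direct neighbours of members in a pathway, and the last kind was chosen after its values were seen. Members and lists were chosen with earlier results of these data known. Alternatives were another pseudocount, filters, folds and scalings, the authors' means, and sums over copies; the pairs to sum were chosen after the values were seen, as no protein sequences were used.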

Additional observations from a re-analysis of the deposited data

How the results depend on the processing

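No paired analysis was possible because KO and WT are 1 pooled library each. Every setting reuses the same reads, so counting error is a wide yardstick for a move between settings, above all near 1 TPM. Of 130 values of 32 single members under other settings, 128 moved by less than their counting error. The exceptions were both of Akr1b3, whose change was 2.39 with the authors' means and turned to -0.12 when summed with Gm6644, a sum chosen after the data were seen. With a fold of 1.2 and its inverse, 2 of 42 members passed upward and 1 downward, and 8 and 6 of 174 pathway genes. Of all genes above 0 in both libraries, 3.55% and 3.37% did, shares that were not matched for level. Of the 11623 genes that averaged 1 TPM or more, 89.1% differed by less than 1.2-fold. The members that passed were among the 32 at that level, 6.25% of them upward and 3.13% downward. With a pseudocount of 0.1 TPM, 4 members passed upward (Adh6a, Akr1b3, Akr1c18, Aldh1a2) and 1 downward (Akr1c21), against 4.59% and 1.16% of all genes above 0 in both libraries, and with the authors' means 4 (Akr1b3, Akr1c18, Aldh1a2, Aldh1a3) and 1 (Akr1c21), against 7.09% and 3.02%; all but Akr1b3 rest on at most 15 estimated reads per library. Both settings gave 5 of 174 pathway genes upward, beside the same upward shares of all genes (4.59% and 7.09%). With Akr1b3 and Gm6644 summed, 0 members passed upward. The log2 ratio of summed TPM went from -0.054 to -0.014 for Adh without Adh1, and from 0.012 over all families to 0.031 without Adh1 and 0.029 with the authors' means. The median of all genes stayed between -0.013 and -0.0033 under the scalings, and family medians moved by less than the counting error of a typical member. Depth limits the 10 members below 1 TPM, while pooling limits what can be said of abundant ones.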

Other observations

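Adh6-ps1, left out of the members by its name, lies between Adh6a and Adh4 in the chromosome 3 cluster and, unlike the 5 members there, had a counting interval above 0. It was at 34.76 TPM in KO against 29.74 TPM in WT. This is a change of 0.22, with an interval of 0.13 to 0.35 on 1283 and 1469 estimated reads, and it did not reach the fold of 1.4. It was chosen after its values were seen.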
